A study of Mus musculus with 36 samples.

Results

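The unmyelinated optic nerve (UON) is the short stretch of nerve just behind the eye, where retinal ganglion cell axons run between astrocytes before they gain myelin. It was compared 3 days (3D) after optic nerve crush with naïve UON. The comparison held 4 of the 36 RNA-seq libraries of the series, chosen by their labels: 2 UON libraries at 3D after crush and 2 naïve UON libraries. In each group, 1 library was made from the pooled RNA of a pair of female C57BL/6 mice and the other from a pair of male C57BL/6 mice, so that the 2 pools of a group differed in sex as well as in animals. All mice were aged between 2 and 4 months. The crushed nerve had been squeezed for 3 s with self-closing forceps behind the globe, through an incision of the conjunctiva, and the naïve mice had received no surgery on either eye. Further UON libraries at 2 weeks (2W) after crush, libraries of the myelinated optic nerve (MON) from the same mice, and UON libraries 3D after microbead injection, which raises eye pressure as a glaucoma model, served to show where the 3D UON response differed. The paper states that crush is done on the MON itself. In comparisons of UON with MON, tissue and nearness to the crush therefore cannot be told apart. RNA from a piece of tissue cannot tell a change in the number of cells of a type from a change in RNA per cell.

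As background, crush severs or damages the axons of retinal ganglion cells, whose bodies in the retina then degenerate. The nerve holds no neuronal cell bodies, so its RNA comes mostly from astrocytes, oligodendrocytes and their precursors, microglia, vessels and connective tissue, with some RNA carried inside axons. Glial cells and blood-derived macrophages are known to divide or gather in injured nerve. A dividing cell first copies its DNA with licensing factors, polymerases and nucleotide-making enzymes, and then makes cyclin B, mitotic kinases, centromere and kinetochore proteins and spindle motors, which drive mitosis and separate the daughter cells.

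The 4 libraries held 49470691 and 47748759 counts (naïve, female and male pool) and 46361298 and 28479283 counts (3D crush). Here and below, values of a group are given in that order, and levels are CPM, counts scaled to a common library size, after TMM scaling, which levels out differences in library composition. The naïve pools resembled each other most (correlation of log2 CPM 0.982). The 3D pools were less alike (0.958), and the male 3D pool lay about as far from its partner as from the naïve pools (0.953 and 0.954). The female 3D pool was closer to the naïve pools (0.972 and 0.971) than to its partner, so the 2 crush pools did not group together. The male 3D pool also had the fewest counts and the largest share of mitochondrial counts, 4.62% against 0.621 to 1.58% in the other 3. The tissue matched its label: the astrocyte filament gene Gfap stood at 11830 and 15080 CPM in naïve UON and at 13800 and 9954 CPM at 3D, and the summed level of 19 myelin and oligodendrocyte genes was 31270 and 25880 CPM in naïve UON against 169900 and 130400 CPM in naïve MON.

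No gene passed the main test of 3D crush against naïve (edgeR's quasi-likelihood test, Benjamini-Hochberg adjusted p under 0.05 and log2 fold change beyond 1): 0 of 21368 genes tested were called, or 0%. Before adjustment 657 genes were under 0.05, and after it 5 genes were under 0.1, the smallest being 0.0758 for Cenpa, the histone H3 variant that marks centromeres. With 2 pools a group, edgeR had 2 residual degrees of freedom from the 6 UON crush libraries, and the typical gene varied between pools with a biological coefficient of variation of 0.654. DESeq2 with the same terms and limits called 173 genes higher (0.832% of 20782) and 37 lower (0.178%). All 209 of the DESeq2 calls that edgeR tested had the same sign in both. The 210 DESeq2 calls became 130 without the male 3D pool and 113 without the male naïve pool, and edgeR made 4 to 88 calls when any 1 of the 6 libraries was left out. Below, "called" means called by DESeq2 and not by edgeR, unless edgeR is named. A plainer description counted genes beyond a log2 change of 1 whose 2 crush pools both lay on one side of both naïve pools: 1782 genes (8.34%) were separated in this way above naïve and 1033 (4.83%) below.

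RNAs of dividing cells held more of the calls than the other gene lists. Of the 111 members of 4 cell cycle lists, all of them tested, 58 were called higher, where 0.832% of all genes tested by DESeq2 were, and they made up 33.5% of the 173 genes called higher. None of the 111 was called lower. Among the 111, 91 were separated above naïve and 0 below, 75 had an unadjusted edgeR p under 0.05, and the median log2 fold change was 3.38, against a median of 0.00127 over all genes. The number called was 38 without the female 3D pool, 36 without the male 3D pool, 43 without the female naïve pool and 33 without the male naïve pool.

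Mki67, the gene of the proliferation marker Ki-67 on chromosome 7 (135689784 to 135716361, GRCm38), was at 4.16 and 0.719 CPM in naïve UON and at 91 and 41.6 CPM at 3D. Both 3D pools lay far above both naïve pools. Its log2 fold change was 5.22 (SE 0.585, edgeR adjusted p = 0.111, DESeq2 adjusted p = 3.07e-18). Top2a, the topoisomerase that untangles replicated chromosomes, was at 4.86 and 2.07 CPM and then at 196.6 and 57.6 CPM. Cdk1, the kinase that starts mitosis, was at 2.42 and 1.2 CPM and then at 43.5 and 44.4 CPM. The 3D pools were thus alike for Cdk1, while for Top2a the female pool was well above the male pool.

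**Figure D1:**
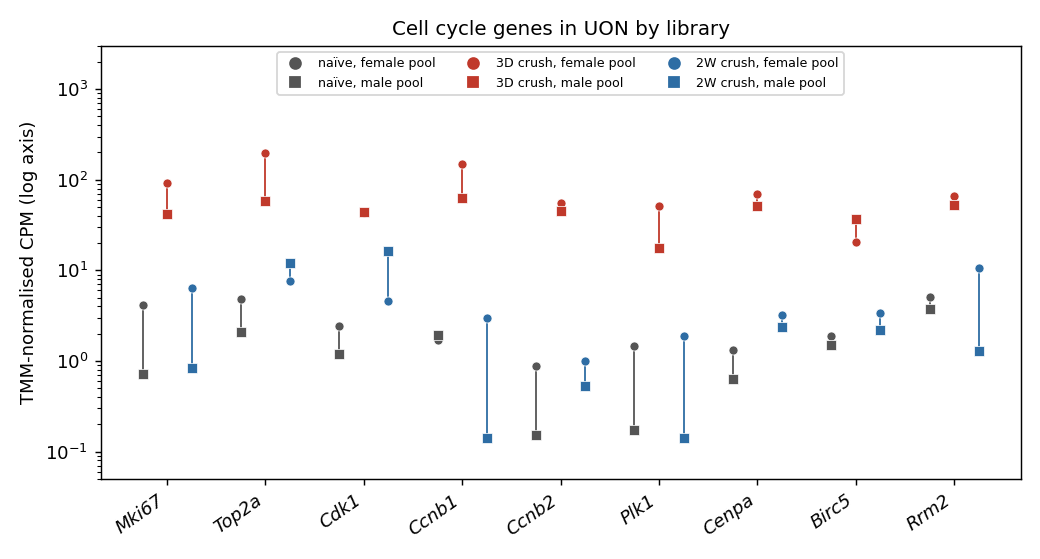
Levels of 9 cell cycle genes in each of the 6 UON crush libraries, as TMM-normalised CPM on a log axis; circles are female pools, squares male pools, and a line joins the pools of a group. For every gene shown both 3D pools (red) lay above both naïve pools (grey) and both 2W pools (blue), as for Cenpa at 69.3 and 50.9 CPM at 3D.

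The mitotic cyclins, kinases and checkpoint genes stood at a median log2 change of 4 across 24 members, of which 15 were called higher and 22 separated above naïve. Ccnb2, a B-type cyclin that activates Cdk1, was at 0.889 and 0.152 CPM in naïve UON and at 55.3 and 44.7 CPM at 3D. Its log2 fold change of 6.88 (SE 0.692, edgeR adjusted p = 0.0986, DESeq2 adjusted p = 1.77e-26) was the largest of this list. Foxm1, the transcription factor of the G2 and M phase programme, was at 0.476 and 0.0871 CPM and then at 21.3 and 16.5 CPM. The polo-like kinase Plk1 was at 1.47 and 0.174 CPM and then at 51.8 and 17.6 CPM. Both genes were separated, and at 3D the female pool was the higher of the 2. Aurkb, the Aurora kinase of the centromere, was at 2.32 and 1.07 CPM and then at 20.3 and 21.6 CPM, and was separated but not called (log2 fold change 3.98, SE 1.42, DESeq2 adjusted p = 0.961). At 2W it was at 1.59 and 0 CPM.

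Kinetochore, centromere and condensation genes had a median of 3.6 over 26 members. All 26 were separated above naïve and 18 were called. Cenpa was at 1.32 and 0.631 CPM and then at 69.3 and 50.9 CPM, a log2 fold change of 6 (SE 0.455, edgeR adjusted p = 0.0758, DESeq2 adjusted p = 1.14e-33). Birc5, the survivin subunit of the chromosomal passenger complex, was at 1.88 and 1.5 CPM and then at 20.5 and 37.2 CPM, with the male pool higher. Cenpe, a kinetochore motor, was at 1.55 and 0.871 CPM and then at 47.5 and 25.6 CPM. These 3 genes were called also in each fit that left out 1 library.

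Spindle, mitotic kinesin and cytokinesis genes had the highest median of the lists, 4.47 over 24 members, with 18 called and 22 separated. Kif2c, a kinesin that removes wrongly attached microtubules, was at 0.0414 and 0.0435 CPM and then at 30.5 and 11 CPM. Prc1, which bundles the central spindle, was at 5.17 and 1.18 CPM and then at 135.4 and 53 CPM. Ckap2l, a spindle protein, was at 2.58 and 0.261 CPM and then at 79.6 and 33.4 CPM. In each of these the female pool was the higher at 3D, while the members as a whole were mixed: of the 111 cell cycle genes, 44 had the larger response in the female pools and the others in the male pools. Anln, the cytokinesis scaffold anillin, which mature oligodendrocytes also express, began higher and changed less (21.6 and 21 CPM to 98.3 and 46.2 CPM). Kif4 and Spag5 were the 2 members not separated, with log2 fold changes of -0.41 and 0.76.

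The promoters of 4 called mitotic genes are shown because members of such lists are known to share short promoter words: the cell cycle homology region (CHR, TTTGAA) and the CCAAT box (CCAAT), bound by the DREAM and MuvB complexes and by NF-Y. Each sequence is the 250 bases upstream of the RefSeq start in GRCm38.p6, written on the gene's own strand, which is the minus strand for all 4, with matches to either word on either strand in capitals. The positions are chr17:33890634-33890883 for Kifc1 (a kinesin that gathers spindle poles), chr9:70421555-70421804 for Ccnb2, chr9:61946800-61947049 for Kif23 (a kinesin of cytokinesis) and chr2:129297213-129297462 for Ckap2l.
Kifc1: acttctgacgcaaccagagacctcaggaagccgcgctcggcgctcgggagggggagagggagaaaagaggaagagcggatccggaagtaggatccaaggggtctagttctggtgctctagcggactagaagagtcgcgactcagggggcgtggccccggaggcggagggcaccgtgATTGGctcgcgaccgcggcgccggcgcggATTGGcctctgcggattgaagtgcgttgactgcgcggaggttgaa
Ccnb2: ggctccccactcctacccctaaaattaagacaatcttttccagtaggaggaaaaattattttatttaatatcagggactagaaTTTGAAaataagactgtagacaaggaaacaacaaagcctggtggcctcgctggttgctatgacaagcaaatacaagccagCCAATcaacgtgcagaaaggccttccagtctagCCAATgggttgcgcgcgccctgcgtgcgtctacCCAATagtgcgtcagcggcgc
Kif23: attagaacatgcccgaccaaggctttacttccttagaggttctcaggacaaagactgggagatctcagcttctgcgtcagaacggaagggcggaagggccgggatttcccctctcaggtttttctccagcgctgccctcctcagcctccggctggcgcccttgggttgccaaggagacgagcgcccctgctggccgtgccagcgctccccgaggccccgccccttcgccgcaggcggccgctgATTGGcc
Ckap2l: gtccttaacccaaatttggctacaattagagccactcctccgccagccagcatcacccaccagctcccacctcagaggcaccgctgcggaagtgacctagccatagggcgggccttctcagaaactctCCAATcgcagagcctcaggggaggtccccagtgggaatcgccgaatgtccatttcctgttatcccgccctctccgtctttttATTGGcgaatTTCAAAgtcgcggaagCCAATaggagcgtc
Ccnb2 held 3 CCAAT boxes and 1 CHR, and Ckap2l the same numbers, while Kifc1 held 2 CCAAT boxes and Kif23 held 1. None of the 4 held an E2F word (TTTGGCGC, TTTCCCGC, TTTGCCGC or TTTCGCGC). Of the 59 mitotic list genes with a window of this kind, 71.2% held a CCAAT box and 30.5% a CHR, against 36.4% and 11.3% of 11714 tested genes, and 27.1% held both, against 4.25%. An E2F word was in 20.7% of 29 DNA replication genes, 8.47% of the mitotic genes and 3.23% of the tested genes. These are matches of letters, and no binding was measured.

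DNA replication genes differed less than mitotic genes. Their median log2 fold change was 1.32 over 37 members, of which 7 were called (among them Gins2, Rrm2, Tk1, Chaf1b, Uhrf1 and Dscc1) and 21 separated above naïve. Rrm2, the small subunit of ribonucleotide reductase, was at 5.02 and 3.7 CPM in naïve UON and at 66.5 and 52.7 CPM at 3D. Tk1, thymidine kinase, was at 2.52 and 2.33 CPM and then at 13.2 and 30.7 CPM. The abundant members moved little: Pcna, the sliding clamp, was at 51 and 50.2 CPM and then at 52.9 and 69.1 CPM, and the helicase subunit Mcm4 was at 47.6 and 49.2 CPM and then at 47.2 and 34.4 CPM. The list's summed level was 380.9 and 353.1 CPM in naïve UON and 643.4 and 777.2 CPM at 3D. Its median log2 ratio was 0.63 in the female pools and 2.1 in the male pools, whereas that of the spindle list was 4.31 and 4.19.

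**Figure D2:**
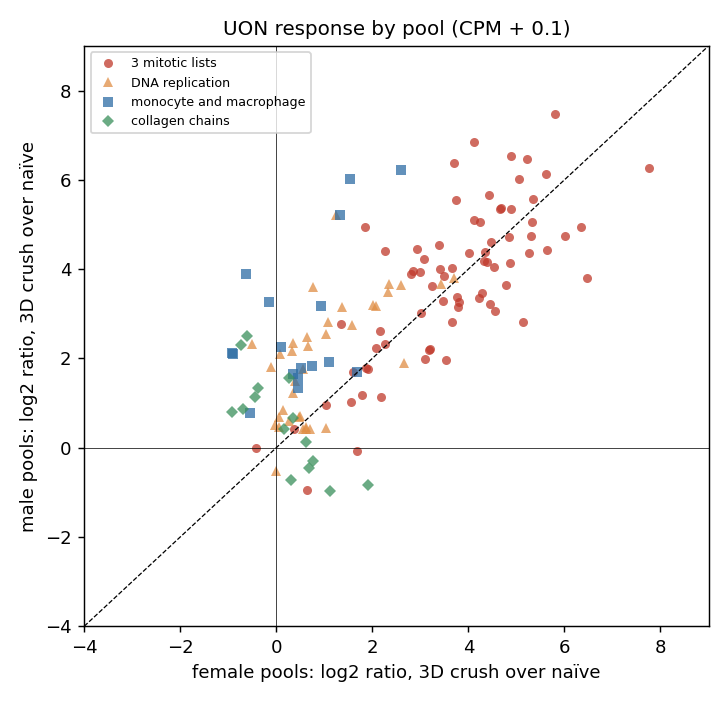
Response of list members in the female pools (horizontal) and male pools (vertical), each as the log2 ratio of 3D crush over naïve after adding 0.1 CPM; each point is a gene and the dashed line marks equal response. The mitotic genes (red) lie around the line in both pools, and the monocyte and macrophage genes (blue) lie above it, with list medians of 0.45 in the female and 2.09 in the male pools.

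Genes that govern entry into the cycle or arrest it were mostly not called, where 0.832% of all genes were called higher. In the list of G1 cyclins and CDK inhibitors, 1 of 13 tested members was called, the inhibitor Cdkn2c (5.33 and 7.25 CPM, then 47.4 and 27.9 CPM). Ccnd1, cyclin D1, was at 541.8 and 650.3 CPM and then at 583.7 and 612.8 CPM, so its groups overlapped. Among 21 p53 targets, 2 were called: Gtse1, which is itself a G2 and S phase gene (1.18 and 1.2 CPM, then 19.1 and 13.8 CPM), and the receptor Eda2r (0.972 and 1.57 CPM, then 5.22 and 10.7 CPM). Cdkn1a, the p21 inhibitor, was at 40.9 and 49.9 CPM and then at 68.1 and 184.7 CPM, separated but not called (DESeq2 adjusted p = 0.151).

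**Figure D3:**
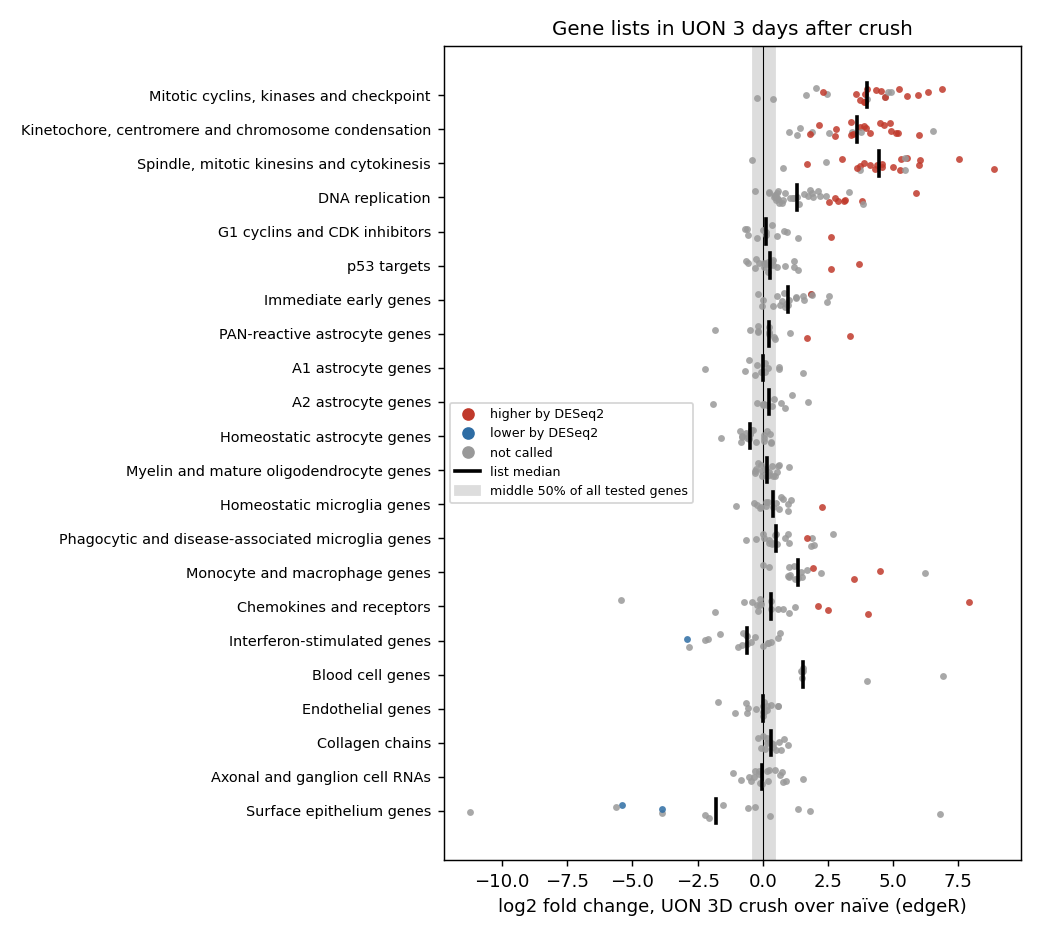
Log2 fold changes of 3D crush over naïve (edgeR, horizontal axis) for the members of 22 gene lists; each point is a gene, red and blue points were called higher or lower by DESeq2, black bars are list medians and the grey band runs from the lower to the upper quartile of all tested genes, -0.37 to 0.47. The mitotic lists stand to the right, with medians of 3.6 to 4.47, and most other lists have medians inside the band.

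Genes outside the cell cycle lists with the largest changes among the calls included further division genes. Pif1, a DNA helicase, was at 0.186 and 0 CPM in naïve UON and at 12.4 and 2.09 CPM at 3D. Arhgef39, a guanine nucleotide exchange factor, was at 0.062 and 0.0218 CPM and then at 7.57 and 3.77 CPM. Sapcd2, which orients the spindle, was at 0.414 and 0 CPM and then at 8.55 and 2.51 CPM. These 3 genes were close to 0 in naïve UON and higher in the female than in the male pool at 3D. The rest of the 15 largest were Kif2c, Kifc1, Ccnb2, the clamp loader subunit Dscc1, the replication initiation factor Ticrr, the BRCA1 partner Bard1, the meiotic cohesin Stag3, the chemokine Ccl8, the hormone subunit Gphb5, the protease Prss30, the receptor Gpr176 and Car9, a carbonic anhydrase induced by low oxygen. Gphb5 (0 and 0 CPM, then 0.536 and 3.14 CPM) and Stag3 (0 and 0 CPM, then 1.98 and 0.279 CPM) rested on few counts. Kifc1, Bard1, Prss30, Ticrr, Dscc1 and Car9 each had a naïve pool at 0, so the size of their change is uncertain too. Dscc1 was at 0.455 and 0 CPM and then at 1.22 and 3.59 CPM, and Car9 at 0.91 and 0 CPM and then at 2.33 and 2.51 CPM. Further calls lay at higher levels: Fcgr3, an activating Fc receptor (15.7 and 17.5 CPM, then 45.6 and 116.7 CPM), and the long noncoding RNA Neat1 (21.4 and 13.8 CPM, then 139.6 and 94.9 CPM). In the authors' FPKM, Neat1 was at 7.22 and 1.04 and then at 11.9 and 13.7, a smaller change in the female pools than in CPM. The reason was not tested.

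Monocyte and macrophage genes were higher at 3D mainly in the male pool. The summed level of the 17 genes was 363.1 and 377.8 CPM in naïve UON and 651.9 and 3042 CPM at 3D. The list's median log2 fold change was 1.35, with 9 of 17 separated above naïve and 3 called, against 8.34% and 0.832% of all genes. Arg1, an arginase of alternatively activated macrophages, was at 0.331 and 1.02 CPM and then at 1.15 and 72.2 CPM. Ccr2, the chemokine receptor of inflammatory monocytes, was at 1.24 and 1.15 CPM and then at 3.28 and 46.2 CPM. Lyz2, the lysozyme of macrophages, was at 251.5 and 282.7 CPM and then at 479.8 and 2568 CPM. In all 3 the male 3D pool was far above the female 3D pool. Without the male 3D pool, and likewise without the male naïve pool, 0 members were called, and without the female 3D pool 5 were. The male 3D pool was also the highest of the 4 for Fn1, fibronectin, at 3009 CPM against 319.7 to 751.8 CPM, and for the summed collagen chains at 6296 CPM against 3001 to 3389 CPM, and the part of this pool in the macrophage result was not tested beyond leaving it out.

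Other immune lists held few calls. Of 19 chemokines and receptors, 4 were called: Ccl8, Cxcl1, Ccl5 and Ccr1. Ccl5, a T cell and monocyte attractant, was at 5.56 and 4.03 CPM and then at 26.4 and 26.5 CPM, with both 3D pools alike. Ccr1, its receptor, was at 1.07 and 4.79 CPM and then at 3.61 and 27.1 CPM, so that its groups overlapped although it was called. Ccl2, the main monocyte attractant, was at 5.27 and 4.38 CPM and then at 2.74 and 21.6 CPM and was not called. Among 17 homeostatic microglia genes 1 was called, the Fc receptor-like gene Fcrls (16 and 12.6 CPM, then 62.2 and 71.4 CPM). Among 19 phagocytic microglia genes 1 was called, the cholesterol 25-hydroxylase Ch25h (3.87 and 5.14 CPM, then 12.3 and 17.1 CPM). C3ar1, the receptor of complement C3a, was the 1 call among 10 complement genes (9.49 and 13.4 CPM, then 25.8 and 47.5 CPM). Spp1, osteopontin, was at 51.9 and 60 CPM and then at 113.9 and 683.3 CPM, separated but not called (DESeq2 adjusted p = 0.735). No gene of the antigen presentation, neutrophil or T, B and NK cell lists was called. Only 5 of 12 neutrophil and 7 of 10 lymphocyte genes were tested, and each summed level was at most 18.9 CPM in the 4 libraries.

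Of the astrocyte lists, that of reactive astrocytes of any kind held the only calls. The summed homeostatic genes were lower in both 3D pools than in either naïve pool. Of 13 genes that mark reactive astrocytes of any kind, 2 were called, where 0.832% of all genes were called higher. They were Timp1, the metalloprotease inhibitor, and Serpina3n, a serine protease inhibitor. Timp1 was at 29.1 and 27.1 CPM in naïve UON and at 280.1 and 299.8 CPM at 3D, a log2 fold change of 3.36 (SE 0.335, edgeR adjusted p = 0.0986, DESeq2 adjusted p = 7.4e-16). The pools of each group were close to each other, and Timp1 was called in every fit that left out 1 library. Serpina3n was at 378.9 and 527.1 CPM and then at 1524 and 1460 CPM (log2 fold change 1.71, edgeR SE 0.388, DESeq2 adjusted p = 0.00608). Gfap and Vim, the intermediate filament genes, were not called, with log2 fold changes of -0.19 (SE 0.362) and 0.23 (SE 0.333). No gene was called in the lists of A1 (12 genes) or A2 (12 genes) astrocytes, as would mostly be so for lists this short at the share over all genes. The 21 homeostatic astrocyte genes had a median of -0.49, with 14 below 0 and 0 called, and their summed level was 23680 and 23990 CPM in naïve UON and 19100 and 14970 CPM at 3D. Ntsr2, a neurotensin receptor of astrocytes, was the 1 separated member, at 56.4 and 37.1 CPM and then at 14.9 and 13.9 CPM (DESeq2 adjusted p = 0.214).

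Among genes of fast signaling, Egr1 was the 1 call of 21 immediate early genes (16.9 and 24.1 CPM, then 130.5 and 42.5 CPM), while 9 were separated above naïve and the median was 0.97. Fos was at 24.2 and 46.1 CPM and then at 106.9 and 98.7 CPM (DESeq2 adjusted p = 0.108). Ccn1, a secreted target of YAP and TAZ, was the 1 call of 11 in its list (70.4 and 121.8 CPM, then 303.2 and 273 CPM). Ccn2, the other well-known target, was at 228.6 and 557.2 CPM and then at 256.3 and 1553 CPM, and its groups overlapped. No member was called of 19 myelin, 11 oligodendrocyte precursor, 16 endothelial, 15 collagen, 18 TGF-beta and BMP, 19 gp130 and STAT3 or 19 cholesterol synthesis genes. Over all genes 0.832% were called higher and 0.178% lower. At these shares lists of this size would mostly hold 0 calls, so the absence of calls does not show that these genes were unchanged. All 7 blood cell genes were separated above naïve, against 8.34% of all genes tested, with 0 called. Of the 7, 1 was at 0 in both naïve pools. Their summed level was 219.8 and 506.8 CPM in naïve UON and 574.5 and 1540 CPM at 3D. Hba-a1 and Hba-a2, which carry much of that sum, are near-identical copies whose counts can be split between them.

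Genes that the study names for the UON at 2W or at both times after crush were also read at 3D. Bub1, a kinase of the mitotic checkpoint, was at 1.57 and 0.348 CPM in naïve UON, at 12.6 and 9.69 CPM at 3D and at 0.0973 and 0 CPM at 2W, and Ccnf, cyclin F, had both 3D pools above all 4 naïve and 2W pools as well. Both were called at 3D against naïve (DESeq2 log2 fold changes 3.99 and 3.58, adjusted p = 0.000138 and 0.000666). Of the 8 others, all named for 2W, 0 were called at 3D. A2m, a protease inhibitor, was at 44.7 and 76.8 CPM and then at 91.1 and 37.8 CPM, and Col2a1, a collagen of cartilage and sclera, was at 7.03 and 9.67 CPM and then at 26.8 and 5.37 CPM. Both overlapped between the groups. Cnn1, the smooth muscle calponin, was at 92.2 and 107.2 CPM and then at 48.6 and 31.2 CPM (DESeq2 adjusted p = 0.098). The other 5, Trim56, Gp1bb, Slc39a14, Oas3 and Nhlrc3, had log2 fold changes of 0.76, 1.68, -0.62, -0.50 and -0.96.

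Fewer genes were called lower. The most abundant was Cartpt, which encodes the CART neuropeptide precursor, at 5568 and 3979 CPM in naïve UON and at 1463 and 1118 CPM at 3D. Its log2 fold change was -1.88 (SE 0.33, edgeR adjusted p = 0.398, DESeq2 adjusted p = 3.58e-05). At 2W it was at 3874 and 3199 CPM, between naïve and 3D. Bcan, the brain proteoglycan brevican, was at 113.2 and 120.9 CPM and then at 42 and 40.6 CPM, and Chst3, a sulfotransferase that modifies chondroitin chains, was at 20.1 and 18.4 CPM and then at 7.34 and 3.24 CPM. Acsbg1, an acyl-CoA synthetase, was at 243.6 and 133.6 CPM and then at 100.2 and 43 CPM. Each of these 4 genes was lower in both 3D pools than in either naïve pool. Rbp4, a retinol carrier, Nppc, the C-type natriuretic peptide, and Dok7, an adaptor of the muscle kinase MuSK, were called lower as well, with log2 fold changes of -1.50, -1.49 and -1.65.

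**Figure D4:**
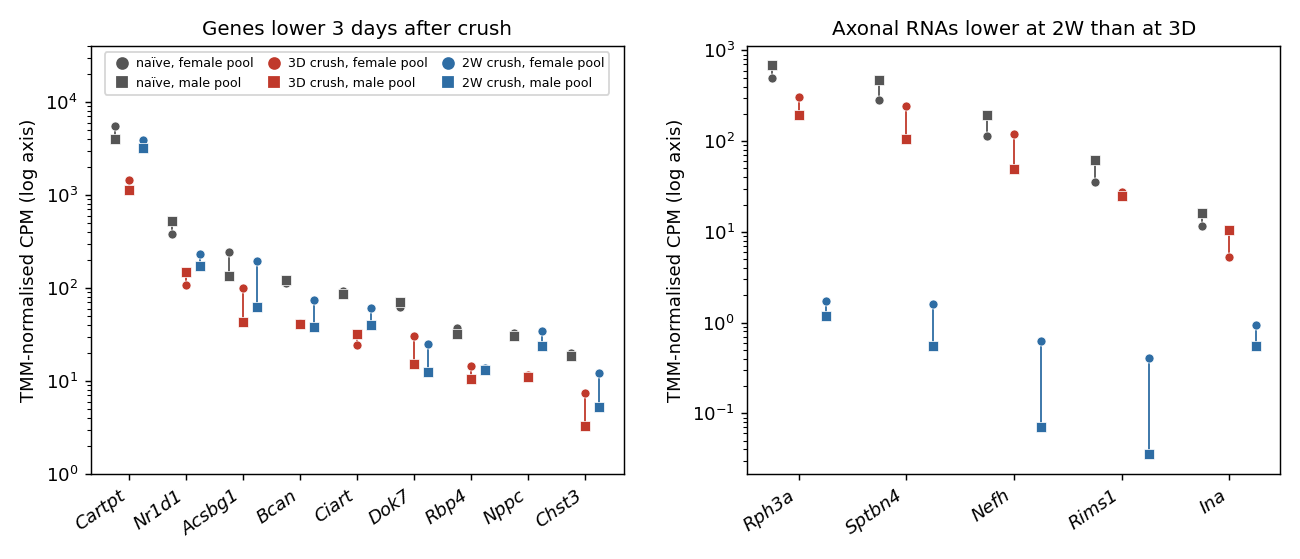
TMM-normalised CPM on log axes in the 6 UON crush libraries, for 9 genes called lower at 3D than in naïve UON (left) and 5 axonal genes (right); circles are female and squares male pools, and lines join the pools of a group. On the left both 3D pools lie below both naïve pools, and on the right the 2W pools lie far below both other groups, as for Rph3a at 1.75 and 1.18 CPM at 2W.

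The 15 lower genes with the largest changes included several of surface epithelia. Krt15, a keratin of basal epithelium, was at 1.41 and 82.4 CPM in naïve UON and at 0.165 and 0.558 CPM at 3D. Asprv1, a skin protease, was at 2.81 and 16.8 CPM and then at 0.165 and 0.732 CPM. Muc4, a surface mucin, was at 0.889 and 5.2 CPM and then at 0 and 0.314 CPM. In each the male naïve pool was the highest of the 4 libraries. Of 16 surface epithelium genes listed, 14 were tested, and 2 of these were called (Krt15 and Pkp1), where 0.178% of all genes were called lower. The summed level of the 14 was 55.1 and 183.1 CPM in naïve UON and 10.4 and 69.8 CPM at 3D. Aldh3a1, abundant in cornea, Upk3bl and Cyp2f2 had the same order, with the male naïve pool highest. The part of stray epithelium in these calls was not tested. The remaining names were Purb, Evi2, Tbx4, Chrna3, Pkp1, Ndor1, Clec3b, Rsad2 and Btbd11. Purb, which encodes a nucleic acid binding protein, was at 36.2 and 5.33 CPM in naïve UON and at 0 and 0 CPM at 3D. It also switched between pools elsewhere, so its call is uncertain. It was at 0 and 63.1 CPM in naïve MON, and at 0 and 25.2 CPM in MON at 3D. In UON 3D after microbead injection it was at 0 and 29.5 CPM. The symbol Ndor1 stands for 2 gene entries, of which 1 was called.

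Interferon-stimulated genes were set apart by 1 naïve pool. Rsad2, the antiviral enzyme viperin, was at 118.6 and 11.1 CPM in naïve UON and at 7.63 and 5.93 CPM at 3D, and was the 1 call of 19. Ifit1, another member, was at 1016 and 137 CPM and then at 85.7 and 73.1 CPM, not called (DESeq2 adjusted p = 1). The list's summed level was 4824 and 2160 CPM in naïve UON and 1867 and 2945 CPM at 3D, so the female naïve pool was the highest and the male naïve pool lay between the 3D pools. The median log2 ratio was -1.2 in the female pools and 0.28 in the male pools.

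Against 2W after crush, edgeR called 1 of 21368 genes (0.00468%), and DESeq2 called 277 of 20055 genes higher at 3D (1.38%) and 81 lower (0.404%). The edgeR call was Rph3a, rabphilin, which binds Rab3 on vesicles. It was at 495 and 684.1 CPM in naïve UON, at 310.3 and 193.5 CPM at 3D and at 1.75 and 1.18 CPM at 2W. The log2 difference of 3D over 2W was 7.42 (SE 0.5, edgeR adjusted p = 0.034, DESeq2 adjusted p = 9.62e-59). Nefh, the heavy neurofilament, was at 113.5 and 195.2 CPM in naïve UON, at 120.4 and 49.6 CPM at 3D and at 0.623 and 0.0704 CPM at 2W. Sptbn4, the spectrin of nodes and axon initial segments, was at 284.1 and 477.7 CPM, then at 245.7 and 106.7 CPM and then at 1.61 and 0.546 CPM. For Rph3a and Sptbn4 both 3D pools lay below both naïve pools, though neither was called against naïve, while Nefh overlapped, and all 3 were close to 0 at 2W. Of 19 axonal and ganglion cell genes, 0 were called at 3D against naïve and 5 were called higher at 3D than at 2W: Nefh, Nefl, Ina, Snap25 and Pou4f1. Over all genes 0.178% were called lower at 3D than in naïve UON, so the 0 does not show that axonal RNA was unchanged.

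The cell cycle genes were higher at 3D than at 2W. DESeq2 called 16 of 24 mitotic cyclins and kinases, 18 of 26 kinetochore genes, 17 of 24 spindle genes and 5 of 37 replication genes higher at 3D, and none of them lower. Mki67 was back at 6.34 and 0.828 CPM at 2W, a level that overlapped naïve UON. Microglia genes were among those with the other order. Itgax, an integrin of activated microglia, was at 4.22 and 2.22 CPM in naïve UON, at 1.77 and 2.06 CPM at 3D and at 45.2 and 21 CPM at 2W (log2 difference -3.98, edgeR adjusted p = 0.13, DESeq2 adjusted p = 4.83e-11). Trem2, the lipid receptor of microglia, was at 24.6 and 20.6 CPM, then at 34.1 and 54.2 CPM and then at 199.1 and 139.2 CPM. Among the lists, 4 of 17 homeostatic and 4 of 19 phagocytic microglia genes and 4 of 7 blood cell genes were called lower at 3D than at 2W, and 1 of 17 monocyte genes, Arg1, higher. The 2W pools were the least alike (correlation 0.938), and leaving out the female 2W pool raised the DESeq2 calls from 358 to 1667, while leaving out the male 3D pool lowered them to 161. The edgeR calls numbered 8 to 147 when any 1 library of these groups was left out.

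In the MON of the same mice, the mitotic genes were higher to a similar level. On a scale shared by UON and MON, the summed level of the 74 genes of the 3 mitotic lists was 397.1 and 347 CPM in naïve UON, 3162 and 1748 CPM in UON at 3D, 591.4 and 471.5 CPM in naïve MON and 2299 and 2665 CPM in MON at 3D. The difference between the responses of UON and MON was tested directly, with 1 gene of these lists called by DESeq2: Anln, whose response was larger in UON (log2 2.45, SE 0.489, DESeq2 adjusted p = 0.000443) and which fell short of the edgeR limit (edgeR adjusted p = 0.25). For Mki67 the difference was -1.03 (SE 0.942, DESeq2 adjusted p = 0.796), an error too wide to show that the 2 tissues responded alike. DNA replication genes had the smaller response in UON: the median difference was -1.22, and Mcm2 and Mcm6 were called. The summed level of that list was 640.7 and 768.7 CPM in UON and 1210 and 1586 CPM in MON at 3D, from 329.7 to 378.5 CPM in the 4 naïve libraries.

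**Figure D5:**
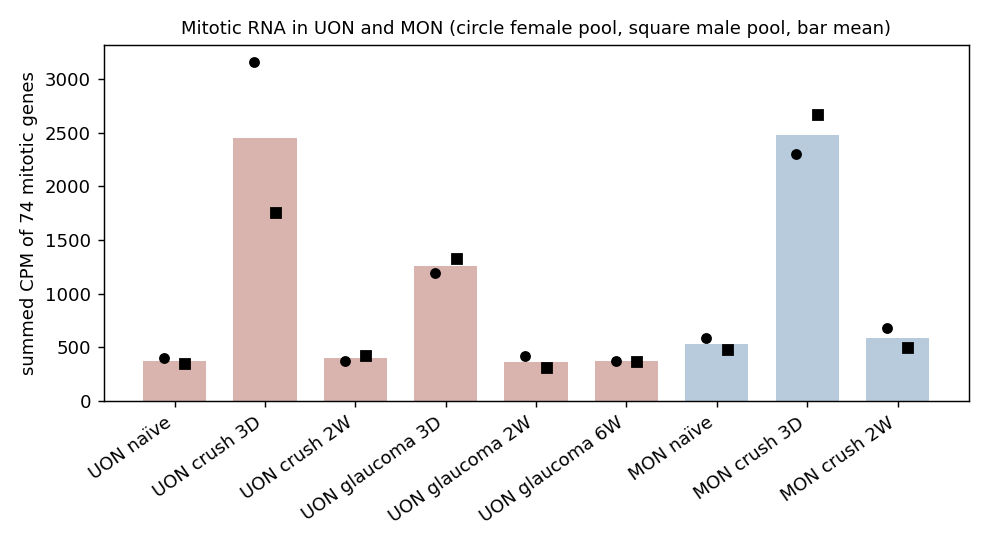
Summed CPM of the 74 mitotic genes in UON (red) and MON (blue) on a scale shared by 18 libraries; circles are female pools, squares male pools and bars their means. The sums stand at 3162 and 1748 CPM in UON 3D after crush and at 1190 and 1324 CPM 3D after microbead injection, and between 308.7 and 422.7 CPM in every other UON library.

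Over all genes, edgeR called 3 of 25011 differences between the tissues' responses (0.012%). DESeq2 called 117 of 20681 (0.566%) with the response higher in UON than in MON and 177 (0.856%) lower. The edgeR calls were Esm1, an endothelial proteoglycan, Igf2, a growth factor of meninges and vessels, and Gm3226. Igf2 was at 94.3 and 105.5 CPM in naïve UON and at 50.3 and 108.5 CPM at 3D, while in MON it was at 21.4 and 77.5 CPM and then at 0.488 and 0.376 CPM. Its level overlapped between the UON groups, and in MON both 3D pools lay below both naïve pools. Esm1 was at 272.4 and 238.1 CPM and then at 519.6 and 174.8 CPM in UON, against 3.24 and 1.8 CPM and then 88.9 and 38 CPM in MON. With the mouse pool as a replicate block, edgeR called 10 genes, 2 higher and 8 lower, among them Thbs1, Spp1, Hmox1 and Lilrb4a. Without the male MON 3D pool edgeR called 0 and DESeq2 79. DESeq2 called 487 without the female MON 3D pool, 131 without the male naïve MON pool, 183 without the female UON 3D pool, and 111 and 80 without the female and the male naïve UON pool.

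Of 19 phagocytic microglia genes, 8 were called with the smaller response in UON (Gpnmb, Spp1, Itgax, Clec7a, Lgals3, Ctsb, Ctsd and Lilrb4a), and the list's median difference was -2.07. Of 17 homeostatic microglia and 17 monocyte genes, 0 were called, with median differences of -0.363 and -1.56. With 0.856% of all genes called lower, 0 of 17 does not show that the tissues responded alike. The summed monocyte level was 649.1 and 3009 CPM in UON and 4114 and 8601 CPM in MON at 3D. In naïve tissue it was 360.7 and 376.4 CPM in UON and 221.5 and 236.9 CPM in MON. Calls with the smaller response in UON were also made for 4 of 18 matrix proteases and inhibitors, 2 of 15 collagens and 2 of 15 matrix glycoproteins, with median differences of -1.08, -0.957 and -0.0878. Spp1 was at 52.2 and 60.3 CPM and then at 113.1 and 690.4 CPM in UON, and at 39.7 and 23.1 CPM and then at 7255 and 16000 CPM in MON. Hmox1, the haem-degrading enzyme, was at 11.4 and 8.85 CPM and then at 12.5 and 27.8 CPM in UON, and at 14.4 and 11.1 CPM and then at 654.3 and 841.4 CPM in MON. Thbs1, thrombospondin, was at 11.8 and 24.5 CPM and then at 19.4 and 101.4 CPM in UON, and at 1.3 and 2.47 CPM and then at 259 and 959.4 CPM in MON. Both MON pools were above both UON pools at 3D for each of these. The crush was made on the MON, so the parts of tissue and of nearness to the crush cannot be told apart. Neat1 had the other order: it was higher at 3D in UON (21.5 and 13.9 CPM, then 138.6 and 95.9 CPM) and lower in MON (214.4 and 295.8 CPM, then 61.5 and 143.8 CPM), a log2 difference of 4.09 (SE 0.869, DESeq2 adjusted p = 0.00113, edgeR adjusted p = 0.28).

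Against UON 3D after microbead injection, edgeR called 0 of 23927 genes (0%), with 255 at an unadjusted p under 0.05, and DESeq2 called 4 of 42006 genes higher after crush (0.00952%) and 8 lower (0.019%). DESeq2 called 41 without the female crush pool, and 20 and 44 without the female and the male glaucoma pool. No member of the 48 lists was called. The summed mitotic level was 3162 and 1748 CPM after crush and 1190 and 1324 CPM after microbead injection, so both crush pools were above both glaucoma pools. Mki67 was at 90.8 and 42 CPM after crush and at 30.2 and 28.8 CPM after microbead injection (log2 difference 0.87, DESeq2 SE 0.738, adjusted p = 1 by both tools). Cenpa was at 69.2 and 51.3 CPM and at 24.6 and 24 CPM. Timp1 was at 279.5 and 302.4 CPM and at 153 and 106.6 CPM. The median differences of the mitotic lists were 0.89 to 0.95, against 0.0123 over all genes. Both injuries were compared with the same 2 naïve libraries, so their responses against naïve are not independent.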

How the data were processed

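RNA from each pool was sequenced as paired reads after ultra-low-input library preparation. Per the study's methods, the authors aligned the reads to GRCm38 with HISAT2 2.2.1, assembled them with StringTie 1.3.0 against a Gencode annotation and deposited estimated counts per gene, with no scaling to library size. The deposited per-library tables also hold FPKM values made by the authors, in which values just below 0 were set to 0. FPKM was kept as a reference level and carried no test. Deposited totals were 49470691 and 47748759 counts for naïve UON and 46361298 and 28479283 for 3D crush, so that counting error was small for all but the lowest genes.

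Counts of the 6 UON crush libraries were filtered (minimum count 10, minimum total 15), TMM-scaled and fitted with edgeR 4.0.16 (R 4.3.3) with terms for group and sex. Its quasi-likelihood test was used, p-values were adjusted after Benjamini and Hochberg over every gene tested, and calls were made where the adjusted p was below 0.05 and the log2 change exceeded 1 in size. DESeq2 1.42.0 was the alternative with the same terms and limits, close to the study's own model. SEs printed for 3D against naïve or 2W came from edgeR, also where a DESeq2 p-value stands beside them. Each was the size of the log2 change divided by the square root of the F statistic. The tissue differences of Anln and Neat1 and their SEs came from DESeq2. The 2W and 3D difference came from the same fit, the difference between UON and MON responses from an interaction over 12 libraries, and the crush and glaucoma difference from all 12 UON libraries. Both tools were also run on simulated counts with known changes. Those counts had the same spread for every gene and no sex difference, so they cannot show whether the calls in these data are right. Each group held 2 pools of unlike sex, and the term for sex removed a female to male difference shared by all groups. The p-values therefore rest on how this difference varied between groups, with estimates of spread shared across genes.

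The members and gene lists were chosen with earlier results of these data known, and the circadian list was added after values were seen. Named genes were list members called or defining, the 15 called genes with the largest change in each direction (official symbols, separated groups, a mean of at least 1 CPM in the higher group), up to 5 for each other comparison, and genes in the study's text. As edgeR called none, this rule was applied to the DESeq2 calls. Other genes named were chosen after their values were seen. Promoters came from RefSeq (GRCm38.p6) for genes whose RefSeq start lay within 500 bases of the start in the tables, a limit set after seeing the data. Per the study's methods, UON and MON were both taken from every mouse. As a check, the difference of female and male pools correlated between UON and MON with r of -0.036 (naïve), 0.0805 (3D) and 0.00891 (2W) across 25011 genes. Leave-one-out, filter, scaling, block and library-set alternatives were run. Retina libraries and transcript counts were not used here, and some genes are not reported here.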

Additional observations from a re-analysis of the deposited data

Results flagged for a closer look

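Each of the following genes differed between tissues or times by edgeR's test of the difference itself. The 3D crush response of Esm1 was lower in UON than in MON by a log2 difference of -4.37 (adjusted p = 0.0253). That of Igf2 was higher in UON by 6.39 (adjusted p = 0.0253). Gm3226 had a difference of 7.44 (adjusted p = 0.0253) and was at 19.9 and 59.8 CPM in naïve UON, 55.1 and 70.7 CPM in UON at 3D, 91.4 and 97.7 CPM in naïve MON and 1.3 and 0.545 CPM in MON at 3D. Rph3a was higher in UON at 3D than at 2W by 7.42 (adjusted p = 0.034), in both pools. Without the male MON 3D pool 0 of the tissue differences were called.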

How the results depend on the processing

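The count for 3D crush against naïve UON depended on the fit. edgeR called 0 genes with RLE factors, without sex, without mitochondrial genes or with only the 4 libraries compared, but 35 with all genes holding any count, 5 with all 12 UON libraries (Top2a, Cenpa, Kif22, Timp1 and Lockd), 4 to 88 when 1 library was left out (fewest without the male 3D pool, most without the male 2W pool), and DESeq2 called 210. DESeq2 called 113 (without the male naïve pool) to 304 genes when 1 library was left out, 130 of them without the male 3D pool, and 33 were called in every such fit, 22 of them cell cycle genes. Calls in the cell cycle lists ranged from 33 to 72 and in the monocyte list from 0 to 5, with 1 in the fit of all 12 UON libraries. Over the lists edgeR called 0 members, 4 with all 12 UON libraries, and DESeq2 called 79. Among the genes DESeq2 called in every fit with 1 library left out were Purb, Gm29216 and Gm28661. Each was at 0 in both pools of 1 group and high elsewhere, so these calls are uncertain. Genes separated below naïve numbered 1892 with any count.

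For 3D against 2W, edgeR called 50 genes with any count, 4 without sex, 13 with all 12 UON libraries and 8 to 147 when 1 library was left out (8 without the male 3D pool, 147 without the female 2W pool). DESeq2 called 358, and 161 to 1667 over the same fits. For UON against MON, edgeR called 375 with any count, 10 with the mouse pool as a replicate block and 0 to 17 when 1 library was left out, with 0 without the male MON 3D pool. DESeq2 called 294, 356 with the replicate block, and 79 to 487 when 1 library was left out. For crush against glaucoma, edgeR called 4 with any count, 12 with only the 4 libraries compared and 0 to 6 when 1 library was left out, and DESeq2 called 12, and 12 to 44.

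The sign turned for 3 genes that were at 0 in some pools and high in others. When 1 pool was left out, the log2 change against naïve ran from -22.86 to 1.525 for Kctd12 and from -23.68 to 1.517 for mt-Atp8, highest without the female naïve pool, and their 3D against 2W change from -23.95 to 0.6927 and from -24.74 to 0.6871, highest without the male 2W pool. For mt-Nd4 the range was -0.9752 to 32.04 against naïve, -2.626 to 29 in the tissue difference and -1.794 to 29.75 against glaucoma, lowest without the male 3D pool. Such fitted values of genes at 0 depend on the prior count and are not sizes of change. Of 2347 values of 190 single genes, 1970 kept direction and call. The call compared was that of the main edgeR fit, which most of these genes lacked. Keeping it mostly meant staying uncalled, so this number does not show that the DESeq2 calls were stable. With all 12 UON libraries, 47 of 48 list medians moved by less than the median standard error of their members, the exception being the neutrophil genes at 3.4, but the sign turned for the T, B and NK cell, pigment epithelium, fibroblast and endothelial lists. The cause of these changes was not tested. Where a pool was left out, the lone pool of its group was taken to vary like the other groups. With 2 pools a group, a gene had to differ far beyond its spread to be called, and genes near 0 CPM rest on few counts.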

Other observations

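Genes of the circadian clock, in a list of 18 written after their values were seen, were mostly lower at 3D than in naïve UON, with 13 below 0, a median log2 fold change of -0.45 and 2 called lower by DESeq2. Nr1d1, the clock repressor REV-ERB alpha, was at 378.6 and 518.5 CPM in naïve UON, 108.3 and 147.4 CPM at 3D and 228.9 and 173.1 CPM at 2W. Ciart, a repressor of the clock activators, was at 93.3 and 87 CPM and then at 24.4 and 31.6 CPM. Dbp, an output gene of the clock, was at 447.6 and 502.3 CPM and then at 224.8 and 256.3 CPM and was not called (DESeq2 adjusted p = 0.306), and Per1 and Per2 overlapped between the groups. The time of day of tissue collection is not given in the sources used here, and its part cannot be told apart from that of crush.

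Some called entries were at 0 or far lower in some pools than in others, and Purb, described above, was among them. Gm29216 was at 0 and 0 CPM in naïve UON and at 5300 and 5923 CPM at 3D, Gm28661 at 1490 and 2116 CPM and then at 0 and 0 CPM, and mt-Cytb at 8168 and 79.7 CPM and then at 9304 and 10240 CPM. The last is a mitochondrial gene, for which near-identical nuclear copies can share reads, so its values are uncertain.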
